A study of Mus musculus with 4 samples.

Results

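Chemokines, interleukins and their receptors were described in 4 RNA sequencing libraries of mouse hippocampal cells. The members were all genes whose symbols name a CC or CXC chemokine ligand, a CC or CXC chemokine receptor, or a numbered interleukin gene. Tnf, Lif and Cx3cl1 were added and Il33 was left out. This gave 138 of the 23334 genes in the tables: 24 CC ligands, 13 CXC ligands, the CX3C ligand Cx3cl1, 18 chemokine receptors, 38 interleukins, 41 interleukin receptors or binding proteins, Tnf, Lif and the enzyme gene Il4i1. The row named Il8 was counted with the CXC ligands, since that symbol is an older name of mouse Cxcl15, and Cxcr7 is an older name of Ackr3. Of the 138 genes, 61 were listed at 0 in all 4 libraries, 21 stayed below 1 FPKM (fragments scaled by transcript length and library size, a level per length), 22 peaked between 1 and 10 FPKM and 34 reached 10 FPKM or more.

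All cells came from C57BL/6 mice of genotype Vegfr3::YFP, a yellow fluorescent protein reporter of the VEGF-C receptor gene Vegfr3, also called Flt4. YFP-positive cells, labelled as neural stem cells of the subgranular zone, and YFP-negative cells, labelled as neurons, were sorted from 2 sets of 16 mice. Culture lasted 18 h for both populations, either without VEGF-C (untreated) or with VEGF-C at 50 ng/ml (treated), and the material of both sets was pooled for each condition. This gave 4 groups of 1 library: untreated and treated YFP-positive cells, and untreated and treated YFP-negative cells. Where 4 values follow each other below, they stand in that order. With 1 library a group, differences have no replicate check and were not tested. The sources used here do not give the age of the mice.

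Chemokines are small secreted proteins that guide migrating cells through G protein-coupled receptors, and interleukins, TNF and LIF act through receptors coupled to JAK-STAT or NF-kappa-B signalling. In the brain, microglia are a known source of Ccl3, Ccl4, Tnf and Il1b when activated, and astrocytes and endothelial cells can also secrete chemokines. Cxcl12 and its receptor Cxcr4 guide neural progenitors in the developing dentate gyrus, and LIF, which signals through Il6st, is known to support neural stem cell self-renewal. Many inflammatory ligand genes carry kappa-B elements, the sites that NF-kappa-B binds, close to their start.

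Promoters of 4 ligand genes are shown as examples that hold the letters of such elements. These genes were lower in each YFP-positive library than in either YFP-negative one. Next to them stands that of Il1r2, a receptor gene that was high in the untreated YFP-positive library and whose window holds none. The sequences are RefSeq's on GRCm38.p6, from 250 bases before the start to 50 after it, all on the plus strand, at chr5:90890995-90891294 (Cxcl1), chr5:90903649-90903948 (Cxcl2), chr5:90785851-90786150 (Cxcl3), chr5:30012864-30013163 (Il6) and chr1:40085843-40086142 (Il1r2). Capitals mark GGG and TTCC spaced by 3 bases of any kind, on either strand.
Cxcl1: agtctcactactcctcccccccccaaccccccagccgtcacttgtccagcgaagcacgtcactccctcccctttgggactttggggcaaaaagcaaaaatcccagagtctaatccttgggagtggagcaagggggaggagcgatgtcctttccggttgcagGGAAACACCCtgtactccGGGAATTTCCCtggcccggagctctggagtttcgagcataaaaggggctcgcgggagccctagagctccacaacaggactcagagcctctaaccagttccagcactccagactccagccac
Cxcl2: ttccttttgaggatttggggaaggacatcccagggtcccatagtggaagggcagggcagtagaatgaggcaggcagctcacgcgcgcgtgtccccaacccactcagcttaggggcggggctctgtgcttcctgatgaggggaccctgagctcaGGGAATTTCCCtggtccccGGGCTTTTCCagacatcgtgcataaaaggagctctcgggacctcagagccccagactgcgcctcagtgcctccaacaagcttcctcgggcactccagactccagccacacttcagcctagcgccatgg
Cxcl3: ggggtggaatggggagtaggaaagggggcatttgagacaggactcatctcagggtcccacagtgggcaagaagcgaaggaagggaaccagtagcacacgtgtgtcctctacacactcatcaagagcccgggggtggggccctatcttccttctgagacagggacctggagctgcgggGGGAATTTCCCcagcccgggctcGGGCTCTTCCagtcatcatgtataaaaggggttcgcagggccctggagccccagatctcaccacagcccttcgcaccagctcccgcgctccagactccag
Il6: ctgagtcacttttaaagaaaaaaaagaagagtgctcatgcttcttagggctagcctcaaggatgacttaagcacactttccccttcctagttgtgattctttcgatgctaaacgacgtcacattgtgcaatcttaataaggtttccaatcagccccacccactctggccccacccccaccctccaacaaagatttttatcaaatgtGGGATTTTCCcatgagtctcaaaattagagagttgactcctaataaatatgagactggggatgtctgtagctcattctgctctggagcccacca
Il1r2: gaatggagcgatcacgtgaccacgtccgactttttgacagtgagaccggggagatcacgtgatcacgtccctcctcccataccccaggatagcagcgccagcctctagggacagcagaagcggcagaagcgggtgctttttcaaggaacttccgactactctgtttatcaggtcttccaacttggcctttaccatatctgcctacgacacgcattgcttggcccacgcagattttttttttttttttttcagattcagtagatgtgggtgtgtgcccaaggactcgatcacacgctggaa

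The 3 neighbouring CXC ligand genes each had matches that began between 50 and 97 bases before the start. In Cxcl1 they began 89, 71 and 70 bases before it, in Cxcl2 97, 96 and 78 bases, and in Cxcl3 73, 72 and 50 bases, so that neighbouring matches overlap. The single match of Il6 began 44 bases before the start. Of the 103 members with a RefSeq promoter, 19 held the motif (18.4%), against 1704 of 27025 genes with a promoter (6.31%). Among members at 10 FPKM or more, 6 of 26 with a promoter held the letters. Of these, Ccl9, Cxcl1, Cxcl2, Cxcl3 and Il6 were lower in both YFP-positive libraries than in their YFP-negative partners. The other, Cxcl10, was higher there, with matches 159 and 104 bases before its start. Its untreated log2 difference was 0.08 when the libraries were scaled to a common upper quartile. Tnf, Il1b and Il18, which were lower in the YFP-positive libraries, had no match in their windows. A link between the letters and the populations was not tested. A match is only a match of letters, and NF-kappa-B binding was not measured.

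The libraries differed in depth and in the number of genes detected. Implied fragments, the deposited normalized counts divided by each library's smallest step, ran from 8390507 to 60326300, and 9556 to 13528 genes were above 0. The untreated YFP-positive and the treated YFP-negative library detected fewer genes, 9669 and 9556, than the other two, at 13528 and 13132. Thinning all libraries to equal depth left that split in place, at 9645 and 9552 against 12808 and 12814 genes. Flt4 itself was listed at 0 in the untreated YFP-positive library, at 2.01 FPKM with VEGF-C, at 0.0584 FPKM in the untreated YFP-negative library and at 0.348 FPKM with VEGF-C, so it did not mark the sort at RNA level without VEGF-C.

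Markers of other cells differed between the libraries as well. The 16 microglia markers summed to 2.96 FPKM in the untreated YFP-positive library and 13.9 with VEGF-C, against 323 in the untreated YFP-negative library and 892 with VEGF-C. Of these, 12 reached 1 FPKM somewhere, while the homeostatic markers P2ry12, Tmem119 and Gpr34 were listed at 0 in all 4. Tyrobp, a microglial signalling adaptor, stood at 0.349, 6.12, 98.0 and 451 FPKM in the same order, whereas the complement gene C1qb stood at 0.157, 0.0148, 61.2 and 0.437, and C1qa and C1qc were listed at 0 in treated YFP-negative cells. Border macrophage and monocyte markers summed to 3.06, 10.8, 51.8 and 198 FPKM, which was Lyve1 in the untreated YFP-positive library and mostly Pf4 in the other 3. Oligodendrocyte markers summed to 355, 469, 7362 and 8836 FPKM, astrocyte markers to 1172, 1047, 62.2 and 62.0, and neuron markers to 314, 341, 102 and 62.5, with Slc17a7 at no more than 0.00478. The astrocyte sums of the YFP-negative libraries were mostly S100b, which was higher there, at 34.2, 26.4, 44.7 and 61.0 FPKM. Of 6 astrocyte markers measured in YFP-negative cells, 5 were at least 2-fold lower with VEGF-C, as were 45.3% of all genes measured. Tubb3 and Stmn2 led the neuron sums of the YFP-positive libraries, while Snap25, at 6.28, 20.4, 21.1 and 39.9 FPKM, was higher in the YFP-negative ones. By at least 2-fold, 3 of 5 measured neuron markers were higher and 2 lower in untreated YFP-positive than YFP-negative cells. Over all genes measured, 30.1% were higher and 46.7% lower there. Neutrophil markers summed to 119.9, 1.79, 26.9 and 6.15 FPKM, led by S100a8 in the 2 untreated libraries, by Elane in treated YFP-positive and Retnlg in treated YFP-negative cells, and lymphocyte markers summed to at most 0.537. Endothelial markers summed to 0.479, 6.66, 11.2 and 24.9 FPKM and mural cell markers to 22.9, 1.64, 10.6 and 0.570, of which Kdr alone gave 23.1 of the 24.9 and Vtn 22.8 of the 22.9. In bulk libraries, fewer cells of a type and less RNA per cell cannot be told apart.

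By summed level and by the number at 1 FPKM or more, chemokine and interleukin genes were higher in the YFP-negative libraries. The number of them above 0 did not follow that order. Members summed to 792 FPKM in the untreated YFP-positive library and 341 with VEGF-C, against 2914 in the untreated YFP-negative library and 6021 with VEGF-C. They took 0.109%, 0.0573%, 0.287% and 0.415% of the normalized counts in that order. Most of the YFP-negative sums came from Ccl3, Ccl4 and Ccl5, at 522, 1030 and 632 FPKM untreated and 381, 3048 and 1137 with VEGF-C. In the untreated YFP-positive library, Ccl3 gave 280 FPKM of the sum. At 1 FPKM or more stood 14 members in the untreated YFP-positive library, 28 with VEGF-C, 41 in the untreated YFP-negative library and 31 with VEGF-C. Over all genes, 6966, 10447, 10363 and 6930 reached that level in the same order. Above 0 stood 33, 52, 64 and 38, and with all libraries thinned to equal depth 33, 47, 61 and 38. Over all genes, 9669, 13528, 13132 and 9556 were above 0. Among treated cells, more members were thus above 0 in the YFP-positive library, as were more genes of any kind. More members reached 1 FPKM in the treated YFP-negative library, although fewer genes of any kind did. The roles were spread unevenly: the untreated YFP-positive library reached 10 FPKM for 1 CC ligand, 1 CXC ligand and 10 receptors, and for no interleukin. The untreated YFP-negative library reached that level for 7 CC ligands, 6 CXC ligands, 2 interleukins, Tnf and 5 receptors. The median of all genes at 1 FPKM or more was 24.5, 10.2, 10.3 and 25.4 FPKM in the same order. A fixed level of 10 FPKM is thus passed more easily in the untreated YFP-positive and the treated YFP-negative library.

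**Figure D1:**
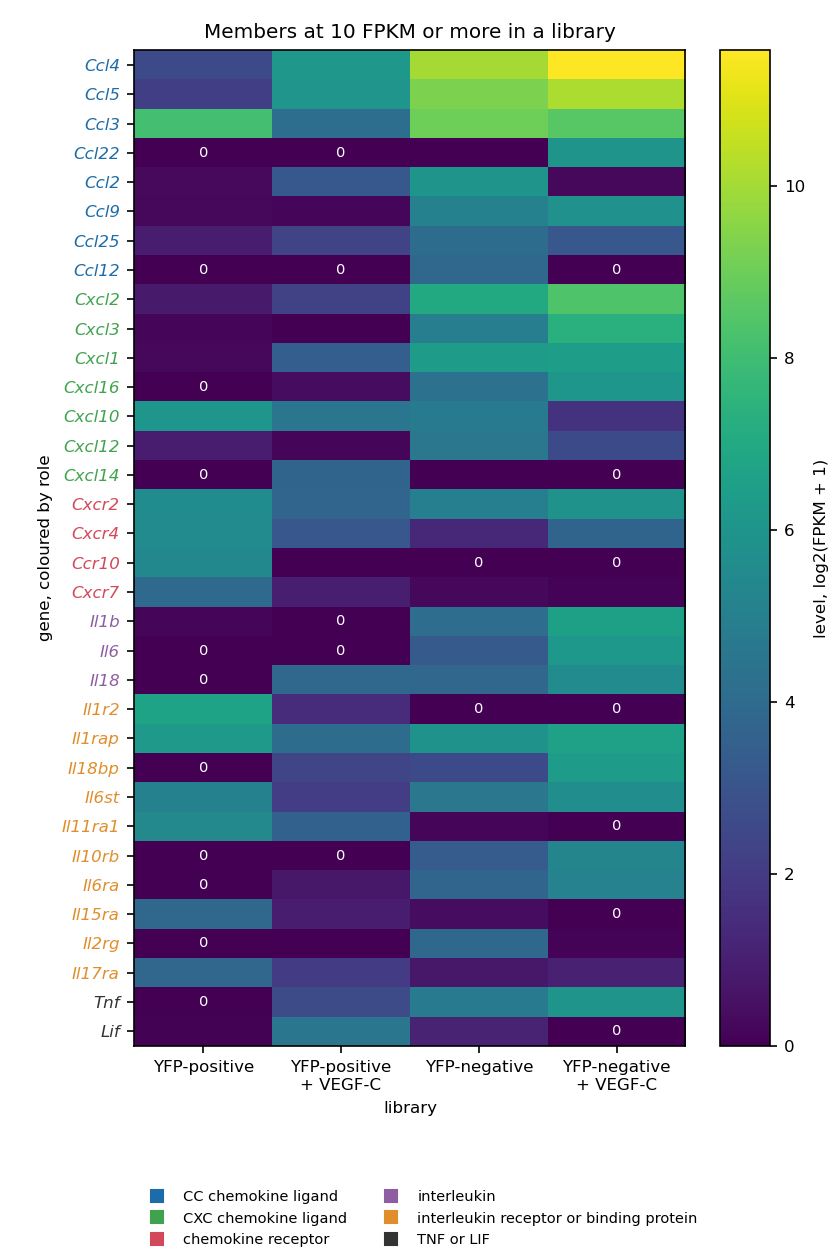
Level of each of the 34 members that reached 10 FPKM in at least 1 library, by role, in the 4 libraries, with 1 library per group and so no error bars. The ligands Ccl4, Ccl5, Cxcl2 and Cxcl3 stand higher in the YFP-negative libraries, and Il1r2 and Il11ra1 in the YFP-positive ones.

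**Figure D2:**
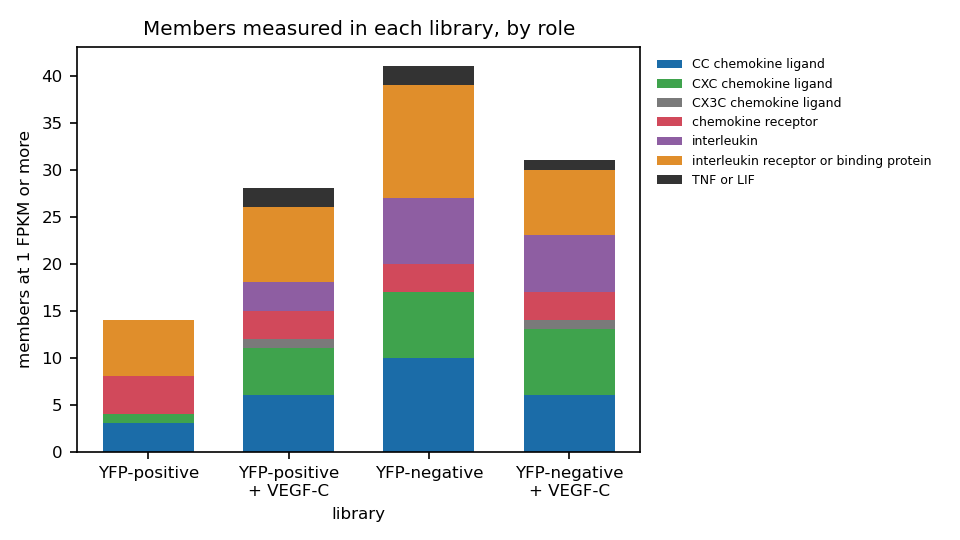
Number of members at 1 FPKM or more in each library, by role, from 1 library per group. The totals are 14, 28, 41 and 31 members, and receptors make up more than ligands only in the untreated YFP-positive library.

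Among the CC ligands, 3 neighbours on chromosome 11 gave the highest levels. Ccl4 (chr11:83662584-83664683 on mm10), a chemokine that attracts monocytes and T cells, stood at 5.09 FPKM in the untreated YFP-positive library, 70.1 with VEGF-C, 1029.6 in the untreated YFP-negative library and 3048 with VEGF-C. Ccl5 (chr11:83525778-83530518), which recruits T cells and monocytes, stood at 3.43, 63.8, 632 and 1137 FPKM. Both were thus far higher in the 2 YFP-negative libraries, and within each population higher in the library with VEGF-C on the deposited scale. Scaling to a common upper quartile turned the YFP-negative VEGF-C difference of Ccl5 from 0.84 to -0.39 on the log2 scale. Ccl3 (chr11:83647844-83649355), a ligand of Ccr1, did not follow that order, at 280.3, 17.3, 522 and 381 FPKM. It was the only CC ligand at 10 FPKM or more in the untreated YFP-positive library, where 1248 implied fragments gave a 95% exact Poisson interval of 265 to 296 FPKM for counting error only. Although Ccl3 and Ccl4 lie next to each other, Ccl4 was 202-fold lower in the untreated YFP-positive than in the untreated YFP-negative library and Ccl3 1.86-fold lower.

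Ccl9 (chr11:83572919-83578636), a rodent ligand of Ccr1, lies in the same block and stood at 0.199, 0.159, 33.5 and 57.3 FPKM. It was near 0 in both YFP-positive libraries. Ccl6, also in that block, was listed at 0 in all 4. In a second chromosome 11 block, Ccl2 (chr11:82035571-82037453), the monocyte attractant that binds Ccr2, stood at 0.219, 8.05, 61.8 and 0.203 FPKM, which rests on 1, 389, 831 and 1 implied fragments. Ccl12 (chr11:82101845-82103400), a second Ccr2 ligand of mice, was seen only in the untreated YFP-negative library, at 13.7 FPKM, and was listed at 0 in the other 3. Ccl7, Ccl8 and Ccl11 of that block were listed at 0 throughout. Both chromosome 11 blocks therefore held detected and undetected neighbours.

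Outside those blocks, Ccl22, a ligand of Ccr4, stood at 62.0 FPKM in the treated YFP-negative library. It rested on 1 implied fragment in the untreated YFP-negative library (0.0288 FPKM, 95% exact Poisson interval 0.000730 to 0.161) and was listed at 0 in both YFP-positive libraries. Ccl25, a ligand of Ccr9, was present in all 4 libraries at 0.919, 4.20, 16.2 and 7.69 FPKM. The gene overlaps Elavl1 by 204 bases, and without strand the reads of an overlap cannot be assigned. Among the 4 CC ligands that peaked between 1 and 10 FPKM, Ccl24 reached 3.38 and Ccl1 1.41 FPKM in the untreated YFP-negative library alone, and Ccl28 stood at 0.628 FPKM in the treated YFP-positive library and 2.29 in the untreated YFP-negative library. The remaining 12 of the 24 CC ligands were listed at 0 everywhere.

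Of the 13 CXC ligands, 9 reached 1 FPKM in at least 1 library. The Cxcr2 ligands Cxcl1, Cxcl2, Cxcl3 and Cxcl5, whose genes lie together on chromosome 5 (from chr5:90759360-90761624 for Cxcl5 to chr5:90903871-90905938 for Cxcl2), are those of the promoters printed above, Cxcl5 excepted. Cxcl1 stood at 0.179, 10.1, 79.8 and 85.3 FPKM. Cxcl2 stood at 0.766, 3.92, 132 and 332 FPKM. Cxcl3 stood at 0.166, 0.0156, 30.4 and 159.5 FPKM, with 1 implied fragment in each YFP-positive library. All 3 were lower in each YFP-positive library than in either YFP-negative one, and highest in the treated YFP-negative library, Cxcl1 by no more than 1.07-fold over the untreated one. Cxcl5 followed at a lower level, with 5.16 FPKM in the untreated YFP-negative library and 1.06 with VEGF-C.

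Cxcl10 (chr5:92346638-92348889), an interferon-induced ligand of Cxcr3, was highest in the untreated YFP-positive library, at 66.1, 22.0, 27.5 and 2.24 FPKM. It was the only CXC ligand at 10 FPKM or more in the untreated YFP-positive library. Cxcl10 lies within Art3, which itself stood at no more than 5.81 FPKM. Cxcl9, the neighbouring Cxcr3 ligand, stood at 6.00 FPKM in the treated YFP-positive library and 0.432 in the treated YFP-negative library, and was listed at 0 in the other 2. Cxcl12, the ligand of Cxcr4 and Cxcr7, stood at 0.823, 0.132, 22.8 and 5.06 FPKM. Cxcl16, the ligand of Cxcr6, was listed at 0 in the untreated YFP-positive library and stood at 0.320 with VEGF-C, 19.8 in the untreated YFP-negative library and 66.8 with VEGF-C. Cxcl14 was nearly confined to the treated YFP-positive library, at 12.5 FPKM, with 1 implied fragment in the untreated YFP-negative library and listed at 0 elsewhere. Cx3cl1, the neuronal ligand of the microglial receptor Cx3cr1, named here after its values were seen, stood at 0.332, 1.40, 0.159 and 5.21 FPKM.

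Chemokine receptors reached 10 FPKM most often in the untreated YFP-positive library, with 4 genes against 1, 1 and 2 in the others. These counts are not alike in scale, since the median of all genes at 1 FPKM or more was 24.5, 10.2, 10.3 and 25.4 FPKM. Cxcr4 stood at 47.0, 7.82, 1.52 and 12.3 FPKM, 30.8-fold higher in the untreated YFP-positive than in the untreated YFP-negative library. Cxcr7, the scavenger receptor of Cxcl12, stood at 14.4, 0.944, 0.203 and 0.0702 FPKM. The ligand Cxcl12 and its 2 receptors were thus high in opposite populations without VEGF-C. Cxcr2, the receptor of the chromosome 5 neutrophil attractants, was present throughout, at 47.9, 12.7, 30.9 and 59.2 FPKM. Ccr10 stood at 41.6 FPKM in the untreated YFP-positive library, rested on 1 implied fragment with VEGF-C and both YFP-negative libraries listed it at 0. All 2447 bases of Ccr10 lie within the opposite-strand gene Cntnap1, which stood at 3.72 FPKM in that library, so reads of the pair cannot be told apart. Among receptors peaking between 1 and 10 FPKM, Cxcr6, which lies within Fyco1, stood at 9.11 FPKM in the untreated YFP-negative library, with the other 3 listed at 0. Ccr7 peaked at 4.46 FPKM in the treated YFP-positive library and Ccr4 at 1.35 in the treated YFP-negative library. Ccr1, a receptor of Ccl3 and Ccl9, and Ccr2, the receptor of Ccl2 and Ccl12, both named here after their values were seen, were listed at 0 in all 4 libraries. Of the 18 chemokine receptors, 8 were listed at 0 everywhere.

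The interleukins and TNF that reached 10 FPKM were led by the YFP-negative libraries. Il1b, the inflammasome-processed IL-1 agonist, stood at 0.121 FPKM from 1 implied fragment in the untreated YFP-positive library, was listed at 0 with VEGF-C, and stood at 16.7 in the untreated YFP-negative library and 94.6 with VEGF-C. Il6 was listed at 0 in both YFP-positive libraries and reached 8.56 FPKM in the untreated and 71.6 in the treated YFP-negative library. Tnf was listed at 0 in the untreated YFP-positive library and stood at 5.34 with VEGF-C, 27.3 in the untreated YFP-negative library and 63.5 with VEGF-C. All 3 inflammatory cytokines were highest in the treated YFP-negative library and next in the untreated one. Il18, another inflammasome substrate, was listed at 0 in the untreated YFP-positive library and stood at 14.1, 12.98 and 47.5 FPKM in the others. The other IL-1 family members Il1a, Il1f9 and Il1rn, which encodes the IL-1 receptor antagonist and is named here after its values were seen, peaked at 9.86, 5.75 and 5.57 FPKM, each in a YFP-negative library. Il31, a T cell cytokine, was seen at 9.31 FPKM in the untreated YFP-negative library alone. The gene overlaps Lrrc43 by 185 bases. Of the 38 interleukins, 23 were listed at 0 everywhere.

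Lif stood apart from these cytokines. Its level was 0.0389 FPKM from 1 implied fragment in the untreated YFP-positive library, 22.3 with VEGF-C from 6102 fragments (95% exact Poisson interval 21.7 to 22.9), 1.15 in the untreated YFP-negative library, and it was listed at 0 in the treated YFP-negative library. The high level was in 1 of the 4 libraries, the deepest one. Il6st, or gp130, the signalling chain shared by LIF, IL-6 and IL-11, was present in all 4 at 33.3, 3.35, 23.2 and 50.7 FPKM, and lowest in that library.

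The interleukin receptors differed from the ligands, since some of the highest were in the untreated YFP-positive library. Il1r2, the decoy receptor that binds IL-1 without signalling, stood at 103.6 FPKM in the untreated YFP-positive library and at 1.74 in the treated one, with both YFP-negative libraries listed at 0. Its overlap with Gm16894 is 9624 bases. Il1rap, the accessory chain of the IL-1 receptors, was the most evenly spread of the named interleukin receptors, at 72.6, 16.0, 61.2 and 96.9 FPKM. Il1r1, the signalling receptor, reached 1.87 FPKM in the treated YFP-positive library, with the other 3 listed at 0. IL-1 ligands and the decoy Il1r2 were thus on opposite sides of the sort.

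Il11ra1, the IL-11 receptor, stood at 43.0 FPKM in the untreated YFP-positive library, 11.1 with VEGF-C and 0.119 in the untreated YFP-negative library, and was listed at 0 with VEGF-C. Il11ra1 overlaps several genes, among them Dctn3 and Galt, and its level is uncertain for that reason. Il17ra stood at 12.99, 2.99, 0.685 and 1.07 FPKM and Il15ra at 14.0, 0.826, 0.315 and 0. Il6ra, the IL-6 binding chain, had the reverse order, listed at 0 in the untreated YFP-positive library, then 0.685 with VEGF-C, 12.6 in the untreated YFP-negative library and 33.6 with VEGF-C. Il10rb was listed at 0 in both YFP-positive libraries and stood at 9.40 and 37.2 FPKM in the others. Il18bp, the secreted inhibitor of IL-18, was listed at 0 in the untreated YFP-positive library and stood at 4.43, 5.11 and 84.0 FPKM in the others. Il18 overlaps Tex12 and Bco2, Il18bp overlaps Numa1 by 80 bases, and Cxcl16 overlaps Zmynd15 by 552, all on the opposite strand. Il2rg, the common gamma chain, stood at 13.6 FPKM in the untreated YFP-negative library and below 0.1 in the other 3. Il13ra1 peaked at 4.60 and Il3ra at 2.74 FPKM, both in the untreated YFP-negative library. Of 41 interleukin receptors and binding proteins, 13 were listed at 0 everywhere. Over all roles, the other 6 genes that peaked between 1 and 10 FPKM reached 1.15 to 1.84 FPKM, and the 21 genes below 1 FPKM peaked at 0.0140 to 0.979.

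Without VEGF-C, ligands were lower in the untreated YFP-positive than in the untreated YFP-negative library, while the shares of receptors higher and lower lay near those of all genes. A gene was counted as higher or lower when its level differed by 2-fold or more, as log2 of the ratio of FPKM + 1, with at least 1 FPKM in either library. Of 47 members measured, 8 were higher and 35 lower, where 30.1% of all 11265 genes measured were higher and 46.7% lower. The median log2 difference was -2.61 for members and -0.66 for all genes. Of 26 ligands and cytokines, 24 were lower and 1, Cxcl10, higher. Of 21 receptors and binding proteins, 11 were lower (52.4%) and 7 higher (33.3%). The largest ligand differences among those with at least 4 implied fragments in both libraries were Ccl4 (202-fold), Ccl5 (184-fold), Cxcl2 (172-fold) and Ccl9 (169-fold), all lower in the untreated YFP-positive library. The receptors Il11ra1 (362-fold, with 4 implied fragments in the untreated YFP-negative library), Cxcr7 (71.0-fold), Il15ra (44.4-fold), Cxcr4 (30.8-fold) and Il17ra (19.0-fold) were higher. Of the 35 lower members, 21 were listed at 0 in the untreated YFP-positive library, and leaving out genes listed at 0 in either library gave 14 lower, namely 13 of 15 ligands and cytokines and 1 of 9 receptors, 5 of which were higher. Over all genes, that setting gave 35.9% higher and 33.99% lower. The higher call of Cxcl10 was lost when the libraries were scaled to a common upper quartile, at a log2 difference of 0.08. All 11 measured microglia markers were lower in the untreated YFP-positive library, with a median of -3.96. So were all 8 oligodendrocyte markers (median -5.43) and all 4 measured endothelial markers (-1.77), while 7 of 8 astrocyte markers were higher. The part of these cell types in the ligand differences was not tested.

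With VEGF-C, most ligands were again lower in the treated YFP-positive library. Of 42 members measured, 10 were higher and 25 lower, where 47.0% of all 11229 genes were higher and 27.6% lower. The median was -1.91 for members and 0.69 for all genes, which is the opposite sign. Ligands and cytokines were lower for 19 and higher for 6 of 27, and receptors and binding proteins were lower for 6 and higher for 4 of 15. Among the lower ligands, Ccl9 was 361-fold lower, Cxcl16 209-fold, Cxcl2 84.6-fold and Ccl4 43.5-fold. Under a common upper quartile, 16 members were higher and 20 lower, against 61.9% and 13.4% of all genes. Leaving out genes listed at 0 left 3 higher of 29, against 33.4% of all genes. All 9 measured microglia markers were lower, with a median of -5.06. So were all 8 oligodendrocyte markers (median -4.59), while 7 of 8 astrocyte and 3 of 5 measured endothelial markers were higher. The part of these cell types was not tested.

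These 2 comparisons share no library. Lower in both were 19 members, 54.3% of the 35 and 76% of the 25. The overlap over all genes was not counted, so these shares cannot be read as particular to the members. They were the CC ligands Ccl4, Ccl5 and Ccl9, the CXC ligands Cxcl1, Cxcl2, Cxcl3, Cxcl5, Cxcl12 and Cxcl16, the IL-1 family members Il1a, Il1b, Il1f9, Il1rn and Il18, together with Il6, Tnf, Il6ra, Il10rb and Il18bp. Under the upper quartile scaling, the ligands and cytokines lower in the treated pair fell from 19 to 15. The list of members lower in both thus depends in part on the scale. Higher in both were Cxcl10, Il11ra1 and Il1r2, although the untreated Cxcl10 difference was 0.08 on the log2 scale under that scaling. Ccl2 and Lif were lower without VEGF-C and higher with it, and no member was higher without VEGF-C and lower with it. Of the 14 with a promoter among the 19, 6 held the kappa-B letters, namely Ccl9, Cxcl1, Cxcl2, Cxcl3, Il1rn and Il6. That is 42.9%, beside 23.1% of the 26 members at 10 FPKM or more, 18.4% of all members and 6.31% of all genes with a promoter. Of the 6, 3 are the neighbouring genes Cxcl1, Cxcl2 and Cxcl3. The 14 were picked by their levels in these same data, so the share tests nothing. Pairing the libraries by the number of genes detected in place of VEGF-C, an alternative chosen after seeing the data, gave 35 lower and 11 higher of 51 in the pair with more genes and 23 lower and 8 higher of 36 in the pair with fewer. Over all genes, 26.8% were higher and 25.8% lower in the former pair, and 39.7% and 37.6% in the latter. Those pairs differ in VEGF-C too.

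**Figure D3:**
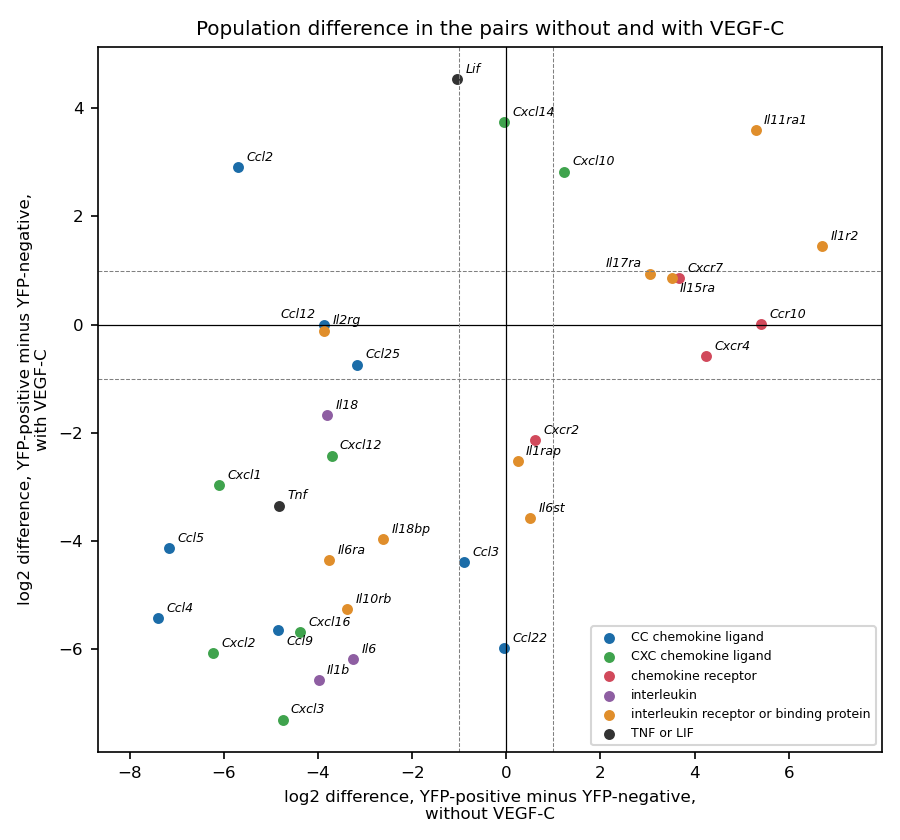
Log2 difference between YFP-positive and YFP-negative libraries without VEGF-C (x axis) and with VEGF-C (y axis) for members at 10 FPKM or more in at least 1 library, 1 library per group, with dashed lines at 2-fold. Most ligands lie in the lower left, Il11ra1 and Il1r2 in the upper right, and Ccl2 and Lif in the upper left.

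With VEGF-C in YFP-positive cells, more ligand genes were higher than lower, and more receptor genes were lower than higher. Of 31 members measured, 18 were higher and 12 lower with VEGF-C, where 45.5% of all 11040 genes were higher and 26.3% lower. The median was 1.12 for members and 0.59 for all genes. Of 17 ligands and cytokines, 14 were higher and 2, Ccl3 and Cxcl10, lower. Those 2 had the highest ligand levels without VEGF-C, at 280.3 and 66.1 FPKM. Receptors and binding proteins were lower for 10 and higher for 4 of 14, and a common upper quartile reduced the lower receptors to 6. Ccl5 was 18.6-fold and Ccl4 13.8-fold higher with VEGF-C, while Ccl3 was 16.2-fold, Cxcr4 6.02-fold and Il1r2 59.3-fold lower. Of the 18 higher members, 9 were listed at 0 without VEGF-C, and without genes listed at 0 the members' median was -1.68. The upper quartile scaling gave 21 higher and 7 lower of 35, against 60.4% and 10.5% of all genes. The treated library was the deeper of the pair, and at equal depth 15 of 18 ligands and cytokines were higher and 10 of 14 receptors lower. Of 3 measured microglia markers, 2 were higher with VEGF-C, and their part was not tested.

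In YFP-negative cells, members went both ways with VEGF-C. Of 45 measured, 15 were higher and 18 lower, where 25.3% of all 10968 genes were higher and 45.3% lower. The median was 0.10 for members and -0.54 for all genes. Ligands and cytokines were higher for 10 and lower for 10 of 28, and receptors and binding proteins were higher for 5 and lower for 8 of 17. Among the members higher with VEGF-C were Il18bp (16.5-fold), Il6 (8.37-fold), Cxcr4 (8.04-fold), Il1b (5.66-fold) and Cxcl3 (5.26-fold). Larger differences rested on few untreated fragments, with Cx3cl1 32.8-fold higher from 10 implied fragments and Ccl22 at 62.0 FPKM from 1. Among the lower members were Cxcl10 (12.3-fold) and Cxcl12 (4.51-fold). Ccl2 (304-fold) and Il2rg (151-fold) were lower too, each with 1 implied fragment in the treated library. Of the 18 lower members, 11 were listed at 0 with VEGF-C, and leaving out genes listed at 0 left 7 lower. The upper quartile scaling gave 7 higher and 23 lower, against 10.7% and 59.7% of all genes, so the balance depends on the scale. Microglia markers were higher for 6 and lower for 3 of 12, with a median of 1.22, and their part was not tested.

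The VEGF-C comparisons of the 2 populations share no library. Higher in both were Ccl4, Cxcl2, Il18, Il18bp and Tnf, 27.8% of the 18 in YFP-positive and 33.3% of the 15 in YFP-negative cells. Lower in both was Cxcl10. Here too, the overlap over all genes was not counted. Ccl2, Il4ra and Lif were higher with VEGF-C in YFP-positive and lower in YFP-negative cells. Cxcr4 and Il6st were lower in YFP-positive and higher in YFP-negative cells. Under the upper quartile scaling, Cxcl10 no longer reached 2-fold in YFP-positive cells (-0.33 on the log2 scale), Ccl4, Cxcl2, Il18 and Tnf no longer reached 2-fold in YFP-negative cells, and the YFP-negative difference of Il6st turned to -0.10 on the log2 scale.

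**Figure D4:**
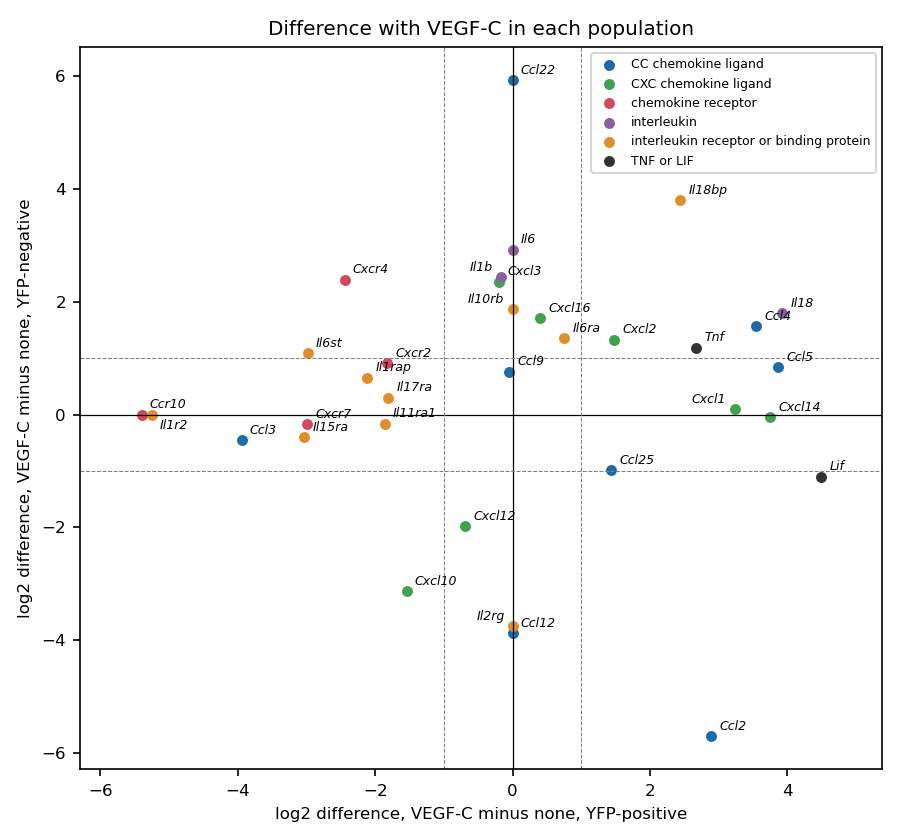
Log2 difference with VEGF-C in YFP-positive cells (x axis) and YFP-negative cells (y axis) for members at 10 FPKM or more in at least 1 library, 1 library per group, with dashed lines at 2-fold. Ccl4, Il18 and Il18bp lie in the upper right, Cxcr4 and Il6st in the upper left, and Ccl2 and Lif in the lower right.

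The signalling partners of these genes were counted in the same way, from lists chosen with earlier results known, first between the populations and then between treated and untreated cells. Their counts are to be read against all genes, of which 30.1% were higher and 46.7% lower between the untreated populations, 47.0% and 27.6% between the treated ones, 45.5% and 26.3% with VEGF-C in YFP-positive cells, and 25.3% and 45.3% with VEGF-C in YFP-negative cells. In the NF-kappa-B list, 5 of 17 measured genes were higher and 10 lower in untreated YFP-positive than in untreated YFP-negative cells, and 7 of 15 higher and 4 lower between the treated populations. As shares, these are 29.4% and 58.8%, and 46.7% and 26.7%, near the shares of all genes. Nfkbia, an inhibitor that NF-kappa-B induces, stood at 277, 71.7, 98.2 and 81.5 FPKM, and Rela, a subunit of the factor, at 34.7, 31.2, 46.1 and 16.1. The transcripts of that pathway were therefore present in both populations. Against untreated cells, treatment went with higher levels of 9 and lower levels of 5 of 17 genes in YFP-positive cells, and with 2 higher and 10 lower of 16 in YFP-negative cells.

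Pattern recognition and inflammasome genes were higher for 3 and lower for 10 of 14 in untreated YFP-positive against YFP-negative cells, and higher for 2 and lower for 3 of 7 between the treated populations. These are 21.4% and 71.4%, and 28.6% and 42.9%, where all genes gave 30.1% and 46.7%, and 47.0% and 27.6%. Cd14, a co-receptor for lipopolysaccharide, stood at 115, 10.2, 420.2 and 681 FPKM, and Myd88, the adaptor of IL-1 and Toll-like receptors, at 72.4, 16.1, 20.01 and 0. In treated against untreated cells, 2 of 8 were higher and 4 lower in YFP-positive cells, and 2 of 12 higher and 8 lower in YFP-negative cells. JAK-STAT genes were higher for 4 and lower for 4 of 11 in untreated YFP-positive against YFP-negative cells, and higher for 9 and lower for 2 of 13 between the treated populations. These are 36.4% in each direction, and 69.2% and 15.4%, read against those same shares of all genes. Stat3, which acts downstream of Il6st, stood at 84.7, 32.9, 6.32 and 22.7 FPKM and the kinase Jak1 at 94.3, 23.7, 17.4 and 4.90. Both were highest in the untreated YFP-positive library. In treated against untreated cells, 7 of 13 were higher and 3 lower in YFP-positive cells, and 3 of 12 higher and 6 lower in YFP-negative cells.

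Among partners of the TNF and IL-6 families, 5 of 13 were higher and 7 lower in untreated YFP-positive against YFP-negative cells, and 5 of 11 higher and 4 lower between the treated populations. These are 38.5% and 53.8%, and 45.5% and 36.4%, where all genes gave 30.1% and 46.7%, and 47.0% and 27.6%. Tnfrsf1a, the main TNF receptor, stood at 85.0, 61.0, 2.38 and 1.32 FPKM, while Tnf itself was high in the YFP-negative libraries. Clcf1, an IL-6 family ligand, stood at 114, 41.8, 14.2 and 2.60 FPKM, and Cntf, another, was listed at 0 in the untreated YFP-positive library and stood at 12.4, 10.5 and 101 FPKM in the others. In treated against untreated cells, 5 of 11 were higher and 3 lower in YFP-positive cells, and 4 of 13 higher and 7 lower in YFP-negative cells. Of 9 chemokine genes that the symbol rule did not take, 4 of 4 measured were lower in untreated YFP-positive than in YFP-negative cells, and between the treated populations 2 of 4 were higher and 2 lower. In treated against untreated cells, 3 of 3 were higher in YFP-positive cells, and 2 of 4 were higher and 2 lower in YFP-negative cells. Cx3cr1, the receptor of Cx3cl1, stood at 11.3 FPKM in the untreated YFP-negative library and 32.7 with VEGF-C.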

How the data were processed

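RNA of sorted hippocampal cells was sequenced in 4 libraries, 1 per group. Library preparation used a SMARTer kit that amplifies cDNA, and sequencing gave 75 bp pairs, per the labels' protocols. Per the submitters' processing notes, reads were mapped to mm10 by TopHat2 2.0.9, together with SAMtools 0.1.18 and Bowtie2 2.1.0, and levels were estimated by Cuffdiff of Cufflinks 2.1.1. Mapping was unstranded and took no new junctions, per the labels' protocols. The sources used here do not give the annotation version. The authors deposited FPKM values and normalized counts, which are treated as signal and give the same ratios between libraries (median coefficient of variation 0.23% over 7610 genes).

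Of 23361 rows, 27 whose symbols had become dates were left out (0.251% to 0.317% of normalized counts). Normalized counts rise in steps of 1 fragment: below 200 steps, 99.1% to 99.7% were whole multiples (tolerance 0.05 step), so division by the step gave implied fragments. Exact 95% Poisson intervals from them cover counting error only, since amplified fragments are not independent molecules. A value of exactly 0 can be a failed estimate and gets no fold.

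Differences are log2((FPKM + 1)/(FPKM + 1)), which understates changes of low genes. Fold changes of named genes are ratios of FPKM. Members at 10 FPKM or more in at least 1 library are named with all values, and below that up to 3 per role with the highest maximum. The members and lists were chosen with earlier results of these data known. The lists covered microglia, border macrophages and monocytes, neutrophils, lymphocytes, astrocytes, neurons, oligodendrocytes, endothelium, mural cells, other chemokines, NF-kappa-B, pattern recognition, JAK-STAT, and TNF and IL-6 partners. Alternatives were another pseudocount, no filter, genes listed at 0 left out, 2 other scalings, thinning to equal depth, and another pairing of libraries. Positions are from GENCODE M21 for mm10 (137 of 138 members). The steps were tested on simulated data. Python 3.11.15, numpy 2.4.6, pandas 2.3.3, scipy 1.17.1 and matplotlib 3.10.9 were used. Some items are not reported here.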

Additional observations from a re-analysis of the deposited data

Results flagged for a closer look

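For 4 members at 10 FPKM or more, the difference with VEGF-C was at least 2-fold in opposite directions in the 2 populations. Over all genes, 45.5% were higher and 26.3% lower with VEGF-C in YFP-positive cells, and 25.3% and 45.3% in YFP-negative cells. Ccl2 and Lif went in the more common direction in each population, Cxcr4 and Il6st in the less common one. Opposite calls over all genes were not counted, so the 4 cannot be read as particular to the members. With 1 library per group the difference between populations was not tested. On the log2 scale, the YFP-positive difference minus the YFP-negative one was 8.60 for Ccl2, 5.59 for Lif, -4.84 for Cxcr4 and -4.08 for Il6st. Ccl2 and Lif were higher with VEGF-C in YFP-positive and lower in YFP-negative cells, by 2.89 and -5.71 for Ccl2 and by 4.49 and -1.10 for Lif. The low Ccl2 values in the YFP-positive library and the treated YFP-negative library rest on 1 implied fragment each. The low Lif values rest on 1 implied fragment and on a value listed at 0. Cxcr4 and Il6st were lower with VEGF-C in YFP-positive cells, by -2.45 and -2.98, and higher in YFP-negative cells, by 2.39 and 1.09. These 2 genes were measured with at least 53 implied fragments in every library. The YFP-negative difference of Il6st turned to -0.10 under upper quartile scaling.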

How the results depend on the processing

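No paired analysis was possible because each group has 1 library. Without VEGF-C, the 35 lower members became 16 with a pseudocount of 10 FPKM and 14 without genes listed at 0, and the median of -2.61 became -5.07 with a pseudocount of 0.1, -0.60 with 10 and -1.07 with no filter. With VEGF-C, the 10 higher members became 4 with a pseudocount of 10, 3 without genes listed at 0 and 16 under upper quartile scaling, and the median became -0.27 with no filter. For VEGF-C in YFP-positive cells, the 18 higher became 5 with a pseudocount of 10 and 9 without genes listed at 0, the 12 lower became 7 under the upper quartile, and the median of 1.12 became 2.91 with a pseudocount of 0.1 and -1.68 without genes listed at 0. For VEGF-C in YFP-negative cells, the 18 lower became 5 with a pseudocount of 10 and 7 without genes listed at 0, the 15 higher became 7 under the upper quartile, and the median became -1.12 there. Il6st and Tnf in YFP-negative cells turned from 1.09 and 1.19 to -0.10 and -0.015 under the upper quartile. A larger pseudocount shrinks differences of low genes by construction, and leaving out genes listed at 0 removes them. The cause was not tested for the other changes. Relative to the main scale, the upper quartile shifted log2 differences by 1.18, -1.30, -1.25 and 1.23 in the 4 comparisons, and re-centring by 0.18, -0.15, -0.15 and 0.16. Of 112 single-member results, the upper quartile changed the call of 21, the pseudocount of 10 that of 19, re-centring 4, the pseudocount of 0.1 2 and thinning 1. Without replicates, no value here measures biological spread.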

Other observations

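The deposited normalized count per FPKM of a gene reflects the mix of transcript lengths that the estimate assigned to it, and it was nearly constant across libraries for most members. Among members with at least 20 implied fragments in at least 2 libraries, 3 stood out. For Il1rap, which has known membrane-bound and soluble forms, it was 67.4, 57.0, 42.4 and 54.6 in the order untreated and treated YFP-positive, untreated and treated YFP-negative, which spans 1.59-fold. For Cxcl12, which has several known splice forms, it was 30.7 in the untreated and 45.8 in the treated YFP-negative library, which spans 1.49-fold. For Il15ra it was 19.4 in the YFP-positive library and 22.6 with VEGF-C. The next highest coefficient of variation was 1.83%. With 1 library per group these differences have no replicate check.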
